A study of Rattus norvegicus with 9 samples.

Results

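Transcripts of 9 serotonin receptors were examined in prefrontal cortex of 9 male rats of the inbred Lewis strain, with 1 Affymetrix expression array per rat. The receptors were Htr1a, Htr1b, Htr1f, Htr2a, Htr2c, Htr3a, Htr5a, Htr6 and Htr7, which are 9 of the 10411 genes named on the array. They were represented by the 15 probe sets, of 15866 analysed, whose only gene symbol in the annotation of the array platform is one of these names. No treatment was applied, the rats form 1 group, and each rat carries a startle, a locomotion, a plus maze and a sugar feeding value without a unit. The plus maze is not among the tests that the study's design text names, so what its value measures is given by its label alone. Per the labels' protocols, 20 rats were tested in this experiment, and frontal cortex without the olfactory bulb was dissected 12 days after the last test. The rats weighed 200 to 250 g, and their age is not stated in the labels.

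Serotonin reaches the cortex along axons of neurons that lie in the raphe nuclei of the brainstem, so the receptors, and not the enzymes that make the transmitter, are expected among cortical transcripts. All but one of the receptors studied are G protein-coupled. The Htr1 and Htr5 receptors couple to inhibitory G proteins, the Htr2 receptors to phospholipase C, and Htr6 and Htr7 to adenylyl cyclase, while Htr3a is a subunit of a cation channel found on interneurons. In frontal cortex Htr2a, on pyramidal neurons, is the best known, as the receptor at which psychedelic drugs act.

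The deposited values are log2 expression after GCRMA, which leaves dim probe sets at a low level that depends on the probes' sequences. A probe set was called at background where its mean over the 9 arrays lay among the lowest 40% of all probe sets, below a mean of 3.22. By this rule 10 of the 15 receptor probe sets lay at background and 5 lay above it, 1 each for Htr1f, Htr2a, Htr2c, Htr5a and Htr7. Htr1a, Htr1b, Htr3a and Htr6 had no probe set above it. The nearest to the limit were Htr1b, with a mean of 3.16, and Htr1f, with a mean of 3.55. Levels of different probe sets depend on their probes and are set here against background, not against each other. A value at background does not show that a receptor is absent from the tissue.

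The tissue label was checked on markers. Among excitatory neuron markers 4 of the 6 on the array lay above background, led by Nrgn, Slc17a7 and Camk2a with means of 12.06, 11.57 and 10.72, while the cortical factors Tbr1 and Rorb lay at background with means of 2.51 and 2.53. Of the 10 interneuron markers on the array, 10 lay above background. Neither olfactory bulb marker on the array, Omp and Th, and neither raphe marker, Slc6a4 and Fev, lay above background. Of the 7 striatal markers on the array, Ppp1r1b and Penk lay above it, and Drd1, Drd2, Adora2a, Tac1 and Rgs9 at it. Between arrays, r over all probe sets ran from 0.988 to 0.998. Rats 8 and 9 differed from the other 7 in many genes: both lay below all of the others in 17.6% of the 9520 probe sets above background, and above them in 9.33%. Many relations are therefore given with and without these rats, and slopes are drawn both ways. The labels name no batch.

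**Figure D1:**
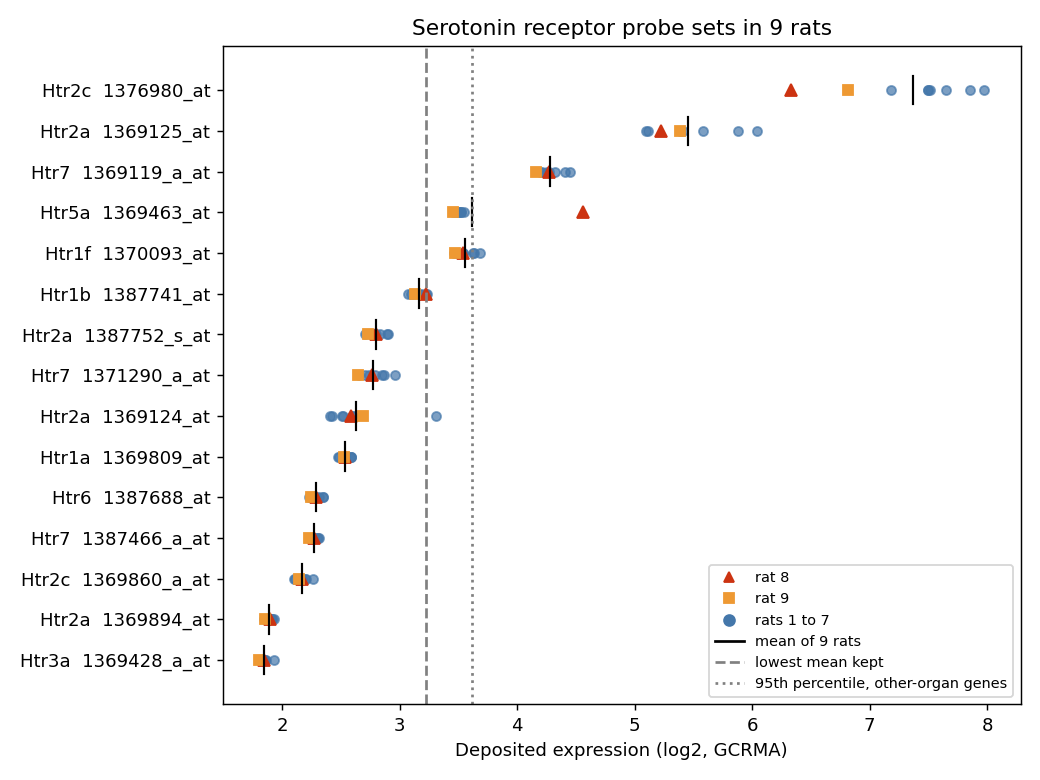
Deposited log2 expression (x axis) of the 15 serotonin receptor probe sets (y axis, ordered by mean), with 1 point per rat and rats 8 and 9 marked. The dashed line is the lowest mean kept, 3.22, and the dotted line the 95th percentile of probe set means of genes of other organs, 3.62; rats 8 and 9 are the lowest for the upper Htr2c probe set, and Htr5a passes the dotted line through rat 8.

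Htr2c, a phospholipase C-coupled receptor whose transcript is edited by adenosine deaminases, had 1 of its 2 probe sets above background. Probe set 1376980_at read 7.18, 7.50, 7.51, 7.98, 7.65, 7.85, 7.50, 6.33 and 6.81 in rats 1 to 9, with a mean of 7.37 ± 0.52 (SD, n = 9). Rats 2 and 7 carry the same value to the last decimal deposited. The lowest and highest rat, 8 and 4, differed 3.12-fold. Its SD exceeded that of 95.5% of the probe sets above background. Rats 8 and 9 were the lowest, with a mean of 6.57 in this pair against 7.60 in the other 7 rats, a difference of -1.02 log2 units, and the 2 sets of values did not overlap. Both rats lay below all of the others in 17.6% of probe sets, so this position was shared with many genes, and no test is given because the pair was named from the arrays. Among the other 7 rats the SD of Htr2c was 0.26.

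Some cell type markers were low in the same rats. Of the 10 interneuron markers, 4 lay below all other rats in both rats 8 and 9 (Gad1, Pvalb, Vip and Npy) and 1 lay above them (Gad2), beside the 17.6% and 9.33% of all probe sets. The mean over the 10 was 8.09 in rat 8 and 8.09 in rat 9, against 7.89 to 8.31 in the other rats. The r with Htr2c over 9 rats was 0.871 for Npy, 0.778 for Vip, 0.752 for Gad1 and -0.842 for Gad2, and 0.407, 0.135, 0.465 and -0.201 over the 7 rats without 8 and 9. These markers were named for their values in rats 8 and 9, where Htr2c was also lowest. Their r over 9 rats therefore follows in part from that choice. No r is given for Pvalb and the other interneuron markers, so the r above do not describe the list as a whole. Below all other rats were also 2 of 6 astrocyte and 1 of 3 microglial markers, and none of the 4 excitatory, 4 oligodendrocyte, 4 endothelial and 4 meningeal markers above background. The part of these cells in the level of Htr2c was not tested. In bulk tissue, fewer cells of a type and less RNA per cell cannot be told apart.

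The second Htr2c probe set, 1369860_a_at, lay at background, with a lowest value of 2.10, a median of 2.17 and a highest of 2.26. It did not show the low values of rats 8 and 9, which read 2.17 and 2.15, so the lower level in these rats rests on 1 probe set. The Htr2c probe sets carry different sequence records in the annotation, and the relations of Htr2c given below rest on 1376980_at alone. Htr2c is abundant in the choroid plexus. The choroid plexus markers Ttr, Kl, Otx2 and Aqp1 lay at background, with means of 2.62, 2.00, 2.86 and 2.69. Folr1 read from 3.41 to 3.54, and Clic6 was not analysed here. The enzyme Adarb1, one of the adenosine deaminases that edit Htr2c, has 2 probe sets. The one with the higher mean read 8.53 in rat 8 and 9.60 in rat 9, against 9.67 to 10.38 in the other 7 rats. This position was shared with 17.6% of the probe sets above background. The other Adarb1 probe set is not described here.

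Htr2a had 4 probe sets, of which 1 lay above background. Probe set 1369125_at read 6.04, 5.88, 5.39, 5.09, 5.11, 5.58, 5.41, 5.23 and 5.39 in rats 1 to 9, with a mean of 5.46 ± 0.33 (SD, n = 9). Rats 1 and 2 were the highest and rats 4 and 5 the lowest, a span of 1.93-fold, and rats 8 and 9 lay within the range of the others. Its SD exceeded that of 83.2% of the probe sets above background. The other Htr2a probe sets, 1369124_at, 1369894_at and 1387752_s_at, had medians of 2.58, 1.89 and 2.80. The first of them read 3.31 in rat 3 and between 2.41 and 2.69 in the other 8, so that the rat with its highest value was not a rat with a high value of the brighter probe set. All 4 carry the same RefSeq accession in the annotation, and the relations of Htr2a given below rest on 1369125_at alone.

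Htr5a, a receptor coupled to inhibitory G proteins, had a level that turned on 1 rat. Its probe set read 4.56 in rat 8 and between 3.46 and 3.55 in the other 8 rats, whose SD was 0.032. Its mean of 3.62 passed the 95th percentile of the other-organ genes, also 3.62, by 0.00077 log2 units. Without rat 8 its mean was 3.50, above the limit of 3.22 and below that percentile. No second Htr5a probe set was there to set beside rat 8.

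Htr7, which raises cyclic AMP, had 1 of its 3 probe sets above background. 1369119_a_at had a lowest value of 4.16, a median of 4.27 and a highest of 4.45, a span of 1.22-fold, with rat 9 lowest and rat 3 highest. The other Htr7 probe sets had means of 2.77 and 2.27. Htr1f, an inhibitory receptor of the Htr1 group, read 3.46 at lowest, 3.54 at the median and 3.69 at highest, with rat 2 lowest and rat 3 highest. These spans were narrow: the SDs of Htr7 and Htr1f, 0.097 and 0.078, exceeded those of 14.6% and 9.63% of the probe sets above background.

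The receptors at background had a span of at most 1.24-fold between rats, with the exception of Htr2a 1369124_at. Htr1b, an inhibitory autoreceptor on serotonin axons, ran from 3.07 to 3.24 with a median of 3.17. Htr1a, the inhibitory receptor of raphe cell bodies and cortical pyramidal neurons, ran from 2.48 to 2.59 with a median of 2.53. Htr6, which like Htr7 raises cyclic AMP and is best known in the striatum, ran from 2.23 to 2.35 with a median of 2.29. Htr3a, the channel subunit, ran from 1.80 to 1.93 with a median of 1.84. The means of the interneuron markers ran from 3.29 for Calb2, below the other-organ percentile of 3.62, to 12.44 for Cck, and Vip and Reln, found in cells that carry Htr3a, had 8.37 and 8.42. Htr3a itself was read at background by its only probe set.

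The 36 genes of other organs that served as a second guide to background had 42 probe sets, with a median mean of 2.51, a 95th percentile of 3.62 and a highest of 5.05, for albumin. By this guide 4 receptor probe sets lay above background, those of Htr2c, Htr2a, Htr7 and Htr5a, and Htr1f did not.

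Most receptor probe sets varied between rats together with the background of the arrays. The array background level was taken as the median deviation from their own means of the dimmest 25% of probe sets, receptors left out, and ran from -0.047 in rat 2 to 0.043 in rat 3. This measure and the limit used on it were chosen after the values had been seen, and its correlations with probe sets are given as a description without p. Of the 15 receptor probe sets, 11 had a Pearson r with it over 0.75 across the 9 arrays. At background these were all but Htr2a 1369124_at, against 79.2% of all probe sets at background. Above background they were Htr1f and Htr7 1369119_a_at, against 9.42% of all probe sets above it. The dimmest 25% define the level and lie among the probe sets at background, so the 79.2% follows in part from the definition. The share over all probe sets together is not given here, and the 11 are not read as a result about receptors. Htr1b, at 0.751, and Htr7 1369119_a_at, at 0.763, lay just inside the limit of 0.75. Without its most extreme rat, 5 for Htr1b and 3 for Htr7, r was 0.703 and 0.653. Without rats 8 and 9 it was 0.826 and 0.707. Htr1f had an r of 0.976, as close as Htr6, with 0.967, and Htr1a, with 0.925, although its mean lay above the 40% limit. Outside it were the upper probe sets of Htr2a, with 0.141, and Htr2c, with 0.144, together with Htr2a 1369124_at, with 0.611, and Htr5a, with 0.120. Without rat 8, Htr5a had an r of 0.977 with the array background level. Variation apart from the array background was thus read for Htr2c and Htr2a across the rats, and for Htr5a in 1 rat. For Htr7 1369119_a_at the reading turned on which rats were included. Htr2a 1369124_at had an r of 0.405 without rat 3, its highest.

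**Figure D2:**
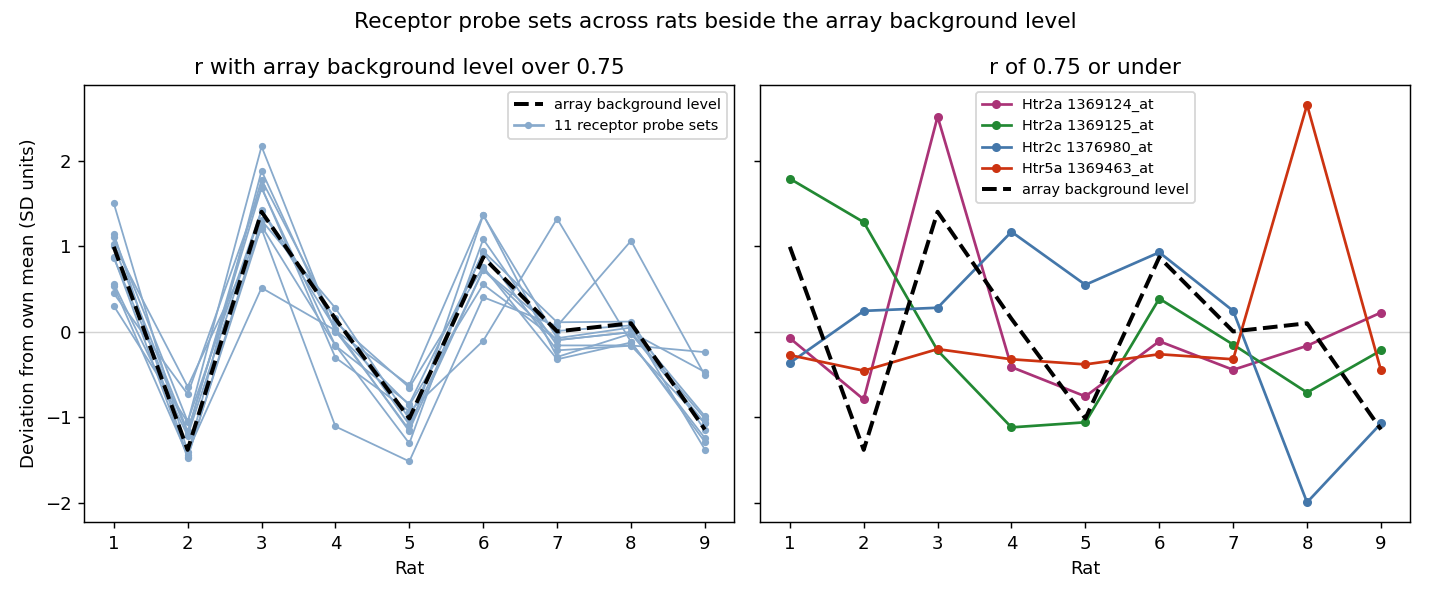
Deviation of each receptor probe set from its own mean in SD units (y axis) for rats 1 to 9 (x axis), with the array background level as the dashed line. The 11 probe sets on the left follow the dashed line, Htr1b and Htr7 1369119_a_at least closely. The line is lowest in rat 2 and highest in rat 3. On the right Htr5a departs in rat 8, Htr2a 1369124_at in rat 3, and the upper probe sets of Htr2a and Htr2c have courses of their own.

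Whether the receptors vary with behaviour among these rats of 1 strain was asked next. For each behavioural value a slope of expression per SD of that value was fitted with limma over the 9520 probe sets above background. None of the 5 receptor probe sets tested passed an adjusted p of 0.05 for any of the 4 values, and 0 of all 9520 did. At an unadjusted limma p under 0.05 there was 1 receptor relation, that of Htr2a with the plus maze. The background at that level was 13.2% of probe sets for startle, 1.96% for locomotion, 2.99% for the plus maze and 1.40% for sugar feeding.

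Htr2a had a positive slope on the plus maze value that did not pass the adjusted threshold. Its slope was 0.20 ± 0.088 log2 units for 1 SD of the value (SE over 9 rats), with a limma p of 0.0451 and an adjusted p of 0.999. By exact permutation, two-sided as all others below, r was 0.626 (p = 0.0618) and rho 0.473 (p = 0.199). Rats 2 and 6, which share the highest plus maze value of 18.7, read 5.88 and 5.58, and rats 3 and 9, with a value of 0, both read 5.39. Without the rats of highest plus maze value, 2 and 6, r was 0.581 (exact p = 0.181). Without rats 8 and 9 it was 0.639 (exact p = 0.118).

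For startle, the Htr2a slope was 0.19 ± 0.092 log2 units for 1 SD (SE over 9 rats; limma adjusted p = 0.398). By exact permutation r was 0.572 (p = 0.107) and rho 0.477 (p = 0.198). The startle values of rats 1 and 3 lie farthest from the median, and r was 0.577 (exact p = 0.175) without them and 0.519 (exact p = 0.233) without rats 8 and 9. The slope was 0.098 (limma adjusted p = 0.68) without rat 1 alone and 0.27 (limma adjusted p = 0.51) without rat 3 alone. For locomotion the slope was 0.13 ± 0.10 (SE over 9 rats; limma adjusted p = 1.00), r was 0.386 (exact p = 0.306) and rho -0.0251 (exact p = 0.958). Rat 1 had the highest value of both, and without it alone the slope was -0.048, so the positive sign rests on that rat. Without rats 1 and 3 r was -0.232 (exact p = 0.615). For sugar feeding the slope was -0.11 ± 0.10 (SE over 9 rats; limma adjusted p = 1.00), r was -0.348 (exact p = 0.364) and rho -0.377 (exact p = 0.318). Without rats 4 and 8, whose sugar feeding lay farthest from the median, r was 0.408 (exact p = 0.366). Without rat 4 alone the slope was -0.0079.

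Htr2c had its lowest p with locomotion, and the slope was negative. It was -0.27 ± 0.15 log2 units for 1 SD (SE over 9 rats), with a limma p of 0.107 and an adjusted p of 1.00. By exact permutation r was -0.515 (p = 0.154) and rho -0.485 (p = 0.187). The r was -0.697 (exact p = 0.0861) without rats 1 and 3 and -0.459 (exact p = 0.302) without rats 8 and 9. Without rat 8 alone the slope was -0.14 (limma adjusted p = 1.00). Rats 1 and 8, with locomotion values of 1102 and 946, read 7.18 and 6.33, and rat 3, with the lowest locomotion of 536, read 7.51.

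For startle, Htr2c gave an r of 0.366 (exact p = 0.334), a rho of 0.335 (exact p = 0.375) and a limma adjusted p of 0.606. The sign turned without rats 8 and 9, where r was -0.389 (exact p = 0.395). Rat 8 has both the lowest startle value, 67.7, and the lowest Htr2c level, and without it alone the slope was -0.029 log2 units for 1 SD. Without rats 1 and 3 r was 0.655 (exact p = 0.113). For the plus maze the slope was 0.11 ± 0.17 (SE over 9 rats; limma adjusted p = 0.999), r was 0.220 (exact p = 0.591) and rho 0.114 (exact p = 0.768). Without rats 2 and 6 this r was -0.255 (exact p = 0.580), and without rats 8 and 9 it was 0.0202 (exact p = 0.950). Without rat 6 alone the slope was 0.0042, and without rat 9 alone 0.049.

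For sugar feeding, Htr2c gave an r of -0.151 (exact p = 0.696), a rho of -0.285 (exact p = 0.454) and a limma adjusted p of 1.00. Rats 4 and 8 had the highest sugar feeding values, 4.7 and 3.3, and the highest and lowest Htr2c levels. Without them r was -0.821 (exact p = 0.0234), and without rats 8 and 9 it was 0.315 (exact p = 0.469). Without rat 4 alone the slope was -0.46, with a limma p of 0.000165 and an adjusted p of 0.310. In that setting 1329 of the 9520 probe sets had an unadjusted limma p under 0.05, against 133 over all 9 rats. Among the 5 receptor probe sets 2 had one. The Htr2c slope was 0.069 without rat 8 alone, beside -0.078 over all 9. The direction of this relation therefore depended on which rats were included.

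**Figure D3:**
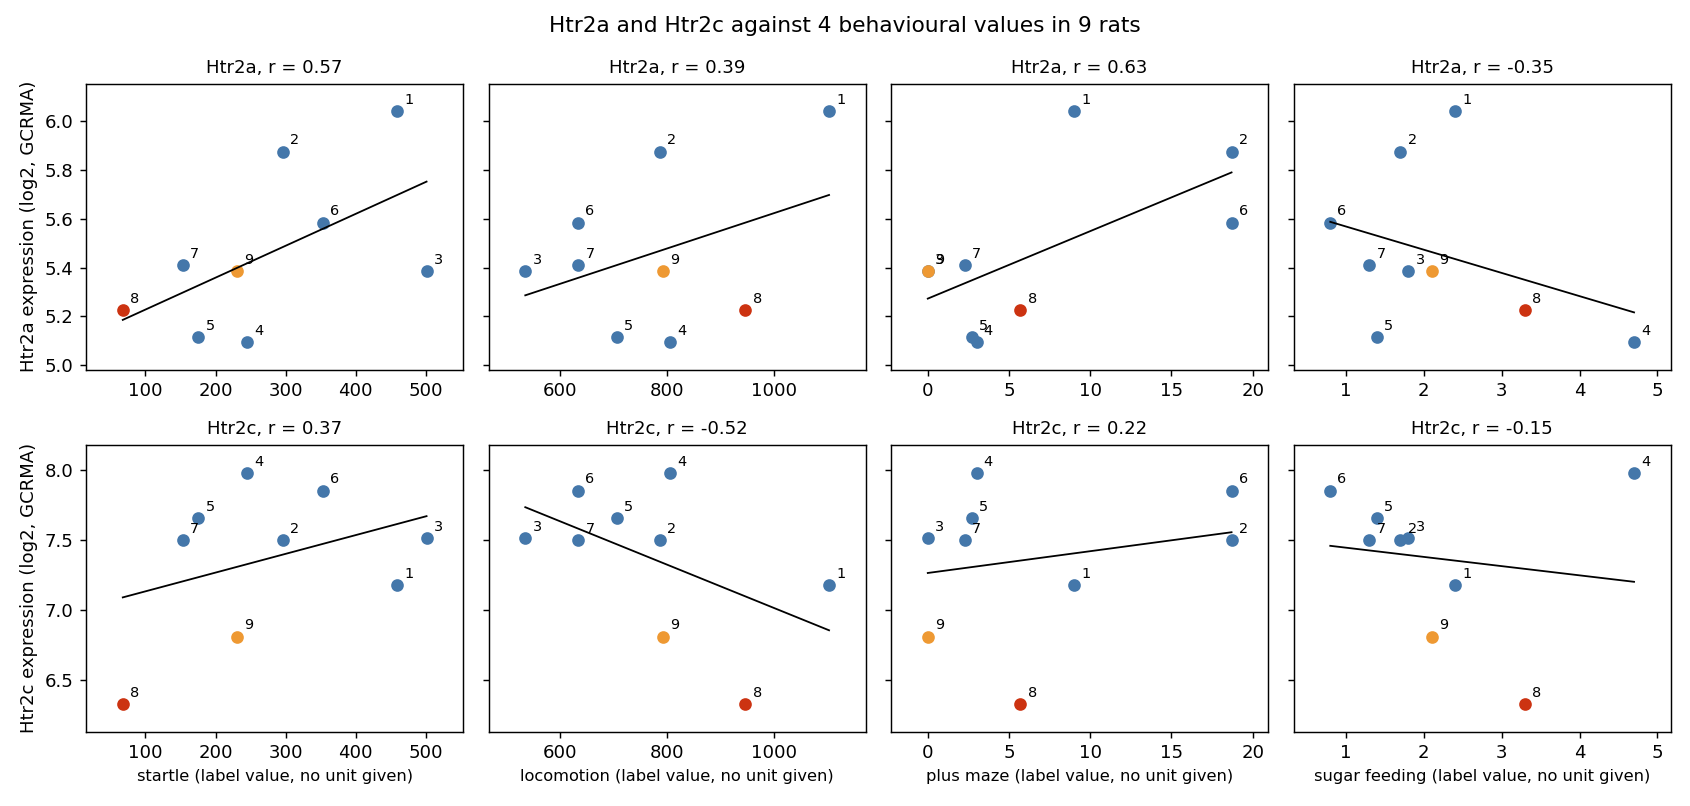
Log2 expression of Htr2a (1369125_at, upper row) and Htr2c (1376980_at, lower row) against startle, locomotion, plus maze and sugar feeding values, which have no stated unit. Each point is 1 rat, labelled by number, with rat 8 in red, rat 9 in orange and a least-squares line; rats 3 and 9 coincide for Htr2a at a plus maze value of 0, and rats 8 and 9 are the lowest for Htr2c in every panel.

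Htr1f gave an r of 0.711 (exact p = 0.0332) with startle and a rho of 0.552 (exact p = 0.129). Its slope was 0.056 ± 0.030 log2 units for 1 SD (SE over 9 rats; limma adjusted p = 0.434). The r was 0.217 (exact p = 0.651) without rats 1 and 3 and 0.810 (exact p = 0.0345) without rats 8 and 9. Without rat 3 alone the slope was 0.035. The array background level itself had an r of 0.585 with startle (exact p = 0.101, or 0.405 after adjustment over the 4 behavioural values) and a rho of 0.583 (exact p = 0.108). Its r was 0.0557 without rats 1 and 3. With the array background level as a covariate the slope of Htr1f was 0.017 ± 0.027 and its limma p 0.552. Htr1f has an r of 0.976 with this covariate, so the fit cannot separate a startle relation from the background level. With it the startle slopes of Htr2a, Htr2c, Htr5a and Htr7 were 0.24, 0.22, -0.31 and -0.0055, with limma adjusted p from 0.655 to 0.978. Without it they were 0.19, 0.19, -0.18 and 0.040. The unadjusted limma p of Htr5a was 0.027 with the covariate, where 710 of 9520 probe sets had one under 0.05.

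The 10 receptor probe sets at background all had a positive r with startle, between 0.402 and 0.684, beside the r of 0.585 of the array background level. All probe sets at background had a median r of 0.941 with that level, so the shared sign is not a result about receptors. The share of all probe sets at background with a positive r is not given here. The highest r of the 10 was that of Htr7 1371290_a_at, with an exact p of 0.0429, the only one of the 10 under 0.05. With all 15866 probe sets in the limma fit, 2 of the 15 receptor probe sets had an unadjusted p under 0.05 for startle, Htr1f and Htr7 1371290_a_at, each with an adjusted p of 0.321. Of all 15866 probe sets 15.5% had such an unadjusted p, and 0.0063% an adjusted p under 0.05. With the plus maze 1 of the 15 did, Htr2a, against 2.58% of all probe sets. For locomotion and sugar feeding the count was 0 of 15, against 1.75% and 1.34%. At background, r ran from -0.392 to 0.160 for locomotion, from -0.386 to 0.178 for the plus maze and from -0.0964 to 0.0762 for sugar feeding.

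Htr5a gave an r of -0.500 (exact p = 0.248) with startle, a rho of 0.126 (exact p = 0.752), and an r of 0.637 (exact p = 0.124) without rats 8 and 9. With sugar feeding its r was 0.355 (exact p = 0.282) and its rho 0.176 (exact p = 0.653). The slope on sugar feeding was 0.13 ± 0.11 log2 units for 1 SD (SE over 9 rats; limma adjusted p = 1.00), and it was -0.00041 without rat 8 and 0.29 (limma adjusted p = 0.31) without rat 4. The r of Htr5a was 0.361 (exact p = 0.301) with locomotion, turning to -0.188 (exact p = 0.671) without rats 8 and 9, and -0.0576 (exact p = 0.931) with the plus maze. Htr7 gave an r of 0.409 (exact p = 0.273) with startle, -0.308 (exact p = 0.423) with locomotion, -0.213 (exact p = 0.601) with the plus maze and -0.134 (exact p = 0.743) with sugar feeding.

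**Figure D4:**
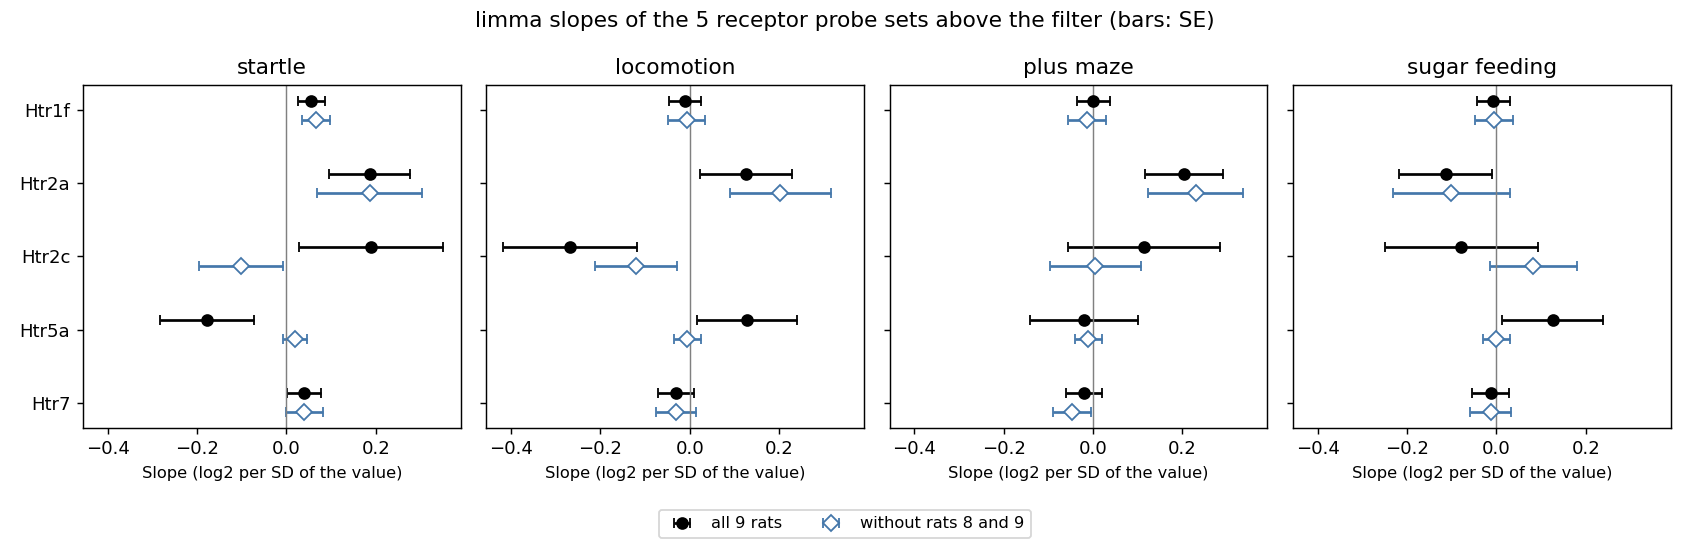
limma slopes in log2 units per SD of each behavioural value (x axis) with SE bars for the 5 receptor probe sets above background (y axis), over all 9 rats (filled circles) and without rats 8 and 9 (open diamonds, with the SD of the 7 rats). Htr2a keeps the sign of its slope in all 4 panels, Htr2c changes it for startle and sugar feeding, and the slopes of Htr5a lie near 0 without rats 8 and 9.

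Between receptors, 1 of the 10 pairs of probe sets above background had an exact p of r under 0.05. This was Htr1f with Htr7, whose r was 0.75 (exact p = 0.0214) and whose rho was 0.778 (exact p = 0.0174). The r was 0.512 without rats 1 and 3, whose Htr1f level lay farthest from the median, and 0.689 (exact p = 0.0964) without rats 8 and 9. Htr1f follows the array background level with an r of 0.976, and Htr7 follows it less closely, with 0.763. An r as far from 0 as that of the pair was found for Htr1f with 10.9% and for Htr7 with 4.15% of the other genes' probe sets above background. The share of those probe sets with an exact p under 0.05 was 16.6% for Htr1f, 3.72% for Htr2a, 23.8% for Htr2c, 7.39% for Htr5a and 11.3% for Htr7.

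Htr2a and Htr2c, the phospholipase C-coupled receptors that varied apart from background, showed no correlation past the threshold over the 9 rats. Their r was -0.0392 (exact p = 0.925) and their rho -0.286 (exact p = 0.451), and r was 0.0194 without rats 1 and 2, whose Htr2a level lay farthest from the median. Without rats 8 and 9 it was -0.706 (exact p = 0.0730). Htr2c with Htr5a gave an r of -0.724 (exact p = 0.0909) over all 9 rats and a rho of -0.0630 (exact p = 0.872), and r was -0.0386 (exact p = 0.938) without rats 8 and 9. Htr1f with Htr5a had an r of 0.0209 over 9 rats and 0.964 (exact p = 0.000794) without rats 8 and 9, where both follow the array background level.

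The 2 genes whose course over the 9 rats was most like that of each receptor were found among 6769 genes above background. For Htr2c they were Cipc, a protein that interacts with the circadian factor CLOCK, with r = 0.970, and Mettl14, a subunit of the RNA methyltransferase complex, with 0.969. Over the 7 rats without 8 and 9 these were 0.885 and 0.922, and Mettl14 read 5.47 in rat 8 and 5.86 in rat 9. For Htr2a they were Ptpre, a receptor-type tyrosine phosphatase, with r = 0.890, and Pafah1b2, a subunit of platelet-activating factor acetylhydrolase, with 0.872, and 0.915 and 0.893 over the 7 rats. Ptpre read only from 3.58 to 3.80, near the other-organ percentile of 3.62. Its rho with Htr2a was 0.622, against 0.895 for Pafah1b2. For Htr5a, Slx9 and Pgls had r = 0.996 and 0.995, and 0.443 and 0.670 over the 7 rats. For Htr1f, Neb, the giant protein of muscle thin filaments, and Krtdap, a keratinocyte protein, had r = 0.990 and 0.989, and for Htr7, Crip1 and Pla2g12a had 0.939 and 0.929. These r are the highest of many and are a description over 9 arrays that share a background and the position of rats 8 and 9.

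Of the other receptors, Htr1d, Htr2b, Htr3b, Htr4 and Htr5b all lay at background, with means from 2.08 to 2.92. Among genes that make, carry or break down serotonin, 3 of the 9 on the array lay above background, and the transporter Slc6a4, with a mean of 2.14, the vesicular transporter Slc18a2, with 2.24, and the decarboxylase Ddc, with 2.53, did not. Maob, a monoamine oxidase, read from 8.98 to 9.82 with a startle slope of 0.21 ± 0.059 log2 units for 1 SD (SE over 9 rats; limma adjusted p = 0.359). Maoa, the oxidase with higher affinity for serotonin, read 8.44 in rat 8 and 8.51 in rat 9, against 7.00 to 7.98 in the other 7 rats. Both rats lay above all of the others in 9.33% of the probe sets above background. The startle slope of Maoa was -0.29 ± 0.16 with a limma adjusted p of 0.453. Asmt, the last enzyme of melatonin synthesis, had a startle slope of 0.10 ± 0.045, a limma adjusted p of 0.378 and an r of 0.967 with the array background level.

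Of 18 genes on the array that couple these receptors to their effectors, 12 lay above background, and 0 passed an adjusted p of 0.05 in limma for any behavioural value. At an unadjusted p under 0.05 there was 1 of 12, against 13.2% of all probe sets for startle. It was Gnai2, an inhibitory G protein subunit, with a startle slope of -0.35 ± 0.11 log2 units for 1 SD (SE over 9 rats; limma adjusted p = 0.359). Gnao1, the most abundant inhibitory subunit of brain, had a plus maze slope of 0.17 ± 0.081, and Gnai1 a sugar feeding slope of -0.15 ± 0.075. Their limma adjusted p were 0.999 and 1.00. The phospholipase C isoforms Plcb1 and Plcb4, effectors of the Htr2 receptors, had startle slopes of 0.089 and 0.098, with limma p of 0.226 and 0.458. The subunits Gnaq and Gna11 that connect them lay at background. Like Htr2c, both isoforms were lower in rats 8 and 9 than in any other rat, as was Adcy3, an adenylyl cyclase, while Gnai2 was higher in both: 3 of 12 below and 1 of 12 above, beside the same 17.6% and 9.33%.

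Of 8 partner proteins, 7 lay above background and 0 passed an adjusted p of 0.05 in limma. An unadjusted limma p under 0.05 was found for 2 of them, Arrb2 for startle, where 13.2% of all probe sets had one, and Cav1 for the plus maze, where 2.99% had. Arrb2, the arrestin that binds activated receptors, had a startle slope of -0.21 ± 0.062 log2 units for 1 SD (SE over 9 rats; limma adjusted p = 0.359) and an r of -0.866 with the array background level. Cav1, the caveolin that associates with Htr2a, had a plus maze slope of 0.23 ± 0.079 with a limma adjusted p of 0.999. Dlg4, the postsynaptic scaffold that binds Htr2a and Htr2c, had a plus maze slope of -0.18 ± 0.080 with a limma adjusted p of 0.999. In rats 8 and 9, 4 of the 7 partners lay below all other rats and Dlg4 lay above them, beside 17.6% and 9.33% of all probe sets. The median slopes of the 12 coupling genes and 7 partners on startle were 0.019 and 0.023, beside 0.021 over all probe sets above background.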

How the data were processed

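Total RNA of prefrontal cortex was hybridised to 1 Affymetrix array per rat. The deposited log2 values per probe set come from GCRMA run by the authors under R 2.6.2 (per the submitters' processing notes), and its settings are not stated there. No scanner files were analysed here. GCRMA corrects background by probe sequence, which sets the level of dim probe sets. Of 15923 probe sets 57 controls were left out, and 9520 of the other 15866 lay above the lowest 40% by mean. The platform annotation gives 12783 probe sets 1 symbol, 312 several and 2771 none.

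For each behavioural value a slope for 1 SD over the 9 rats (7 residual degrees of freedom, two-sided) was fitted with limma 3.58.1 (R 4.3.3), adjusted by Benjamini-Hochberg over all probe sets fitted. Exact permutation tests used all pairings of the rats, in Python 3.11.15 with numpy 2.4.6, and no p was adjusted over the receptors alone. There were 60 relations of receptor probe sets with behaviour and 10 pairs of receptors. The spread between rats, each with 1 array, also holds technical differences between arrays. Their number limits the precision.

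The receptors, gene lists, tests and alternatives were chosen with earlier results of these data known. By the naming rule, every receptor probe set is described, and for each behavioural value the 2 receptors above background of smallest limma p carry slopes, as do all relations of Htr2a and Htr2c, which makes 10. Up to 3 genes of each list by smallest limma p are named, as are the 2 genes most like each receptor, with 1 probe set per gene and symbols beginning LOC, RGD, MGC or AABR not eligible. Other list genes are named for their role, with values known. Alternatives were other filters, quantile normalization, an intensity trend, ranks, covariates, array weights, 1 probe set per gene and left-out rats. The array background level, its use as a covariate and its limit of 0.75 were chosen after seeing the data. Figures were drawn with matplotlib 3.10.9.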

Additional observations from a re-analysis of the deposited data

Results flagged for a closer look

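Among 9 rats, 3 receptor probe sets had 1 rat far from the rest, where the gap to the nearest rat divided by the range of the group passed Dixon's critical value. Chance flags about 1 in 20 groups of independent values, and probe sets at background share their course between arrays. The share flagged among all probe sets was not determined, so the count of 3 is not read as a result about receptors. For Htr5a the ratio was 0.919, with 4.56 in rat 8, above the next by 1.02 log2 units. For Htr2a 1369124_at it was 0.693, with 3.31 in rat 3, above the next by 0.63. For Htr3a it was 0.5004, with 1.93 in rat 3, above the next by 0.062 log2 units, in the array with the highest background level. Htr5a and Htr2a 1369124_at carried those values in 1 probe set each, and their cause was not tested.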

How the results depend on the processing

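No receptor probe set passed an adjusted p of 0.05 for any behavioural value under the 22 alternatives per value, and the lowest limma adjusted p among the 10 named relations was 0.31. No paired analysis was possible because the rats form 1 group. The count of receptor pairs under 0.05 was 3 by rho and ran from 0 to 3 when 1 rat was left out, against 1 in the main setting. It was 0 without rat 3 and without rat 9, and 3 without rat 8. At background lay 10 receptor probe sets in the main setting, 11 by the genes of other organs, 12 by the lowest 50% and 12 with the limit on r added after seeing the data. Of the 214 alternative slopes of named relations 18 changed sign, in log2 units per SD. Without the 2 farthest rats, Htr2a had -0.065 for locomotion and 0.13 for sugar feeding, Htr2c -0.14 for the plus maze and Htr5a -0.0051 for sugar feeding. With the first principal component as a covariate Htr2c had -0.079, -0.058 and 0.023 for startle, plus maze and sugar feeding, and with a term for rats 8 and 9 -0.051, -0.021 and 0.039. Without rats 8 and 9 it had -0.10 for startle and 0.082 for sugar feeding, with array weights -0.021 for startle and with the other values as covariates 0.20 for sugar feeding. Leaving out 1 rat in turn, the slopes ran from -0.048 (without rat 1) to 0.18 (without rat 8) for Htr2a on locomotion, from -0.00041 (without rat 8) to 0.29 (without rat 4) for Htr5a on sugar feeding, from -0.029 (without rat 8) to 0.27 (without rat 1) for Htr2c on startle, and from -0.46 (without rat 4) to 0.069 (without rat 8) for Htr2c on sugar feeding. The other 6 kept their sign: 0.098 to 0.27 (Htr2a, startle), 0.15 to 0.24 (Htr2a, plus maze), -0.16 to -0.0079 (Htr2a, sugar feeding), -0.33 to -0.14 (Htr2c, locomotion), 0.0042 to 0.17 (Htr2c, plus maze) and 0.035 to 0.068 (Htr1f, startle). The cause of these changes was not tested. Dim probe sets limit what can be read for Htr1a, Htr1b, Htr3a and Htr6.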
